A study of Mus musculus with 6 samples.

Results

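T-box transcription factors share a DNA-binding domain, the T-box, and were examined in cells sorted from the mouse aorta by embryonic lineage. The 8 genes *Tbx1*, *Tbx2*, *Tbx3*, *Tbx4*, *Tbx5*, *Tbx15*, *Tbx18* and *Tbx20* were taken by symbol, and all 8 were found among the 24421 rows of the expression matrix. The study sequenced RNA of living GFP+ cells, set to equal cell number, out of the root and the ascending segment of the aorta in 129S6/SvEv mice aged 8 weeks, in 3 libraries of cells derived from the secondary heart field (SHF) and 3 of cells derived from the cardiac neural crest (CNC). All mice carried the *CAG-Sun1/sfGFP* tracer allele, which is switched on by Cre and stays on in the descendants of a marked cell. SHF mice also carried *Mef2cSHF* and CNC mice *Wnt1-Cre2*. These drivers mark an embryonic origin and not a cell type, so that any descendant, smooth muscle or other, enters the sort. The comparison addresses which transcripts differ between cells of both origins in the proximal aorta.

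T-box factors bind a short shared DNA motif and act as activators or repressors in a gene-specific way. In the embryo, *Tbx1* acts in the secondary heart field and pharyngeal arches that build the outflow tract, *Tbx2* and *Tbx3* keep the atrioventricular canal and conduction system from becoming chamber muscle, and *Tbx5* and *Tbx20* act in the heart tube and its valves. *Tbx18* marks the epicardium, sinus horns and mural cells, *Tbx4* the hindlimb and lung mesenchyme, and *Tbx15* the skeletal and dermal mesenchyme.

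Levels are given in TPM (transcripts of a gene per 1000000 transcripts), which corrects for gene length and for the library total, so that levels of different genes can be set side by side, and 3 values in a row are those of replicates 1, 2 and 3 of a lineage. *Tbx20* was the most abundant member and was higher in SHF cells. Its SHF libraries had 38.26, 99.95 and 40.03 TPM and its CNC libraries 7.6, 4.55 and 8.35 TPM. Every SHF library was above every CNC library, with SHF replicate 2 the highest and the other SHF libraries close to each other. The lowest SHF library was 4.58 times the highest CNC library. The mean level was 59.4 ± 35.1 TPM (SD, n = 3) in SHF and 6.83 ± 2.01 TPM (SD, n = 3) in CNC, a ratio of means of 8.7. Without SHF replicate 2 the SHF mean was 39.1 TPM and the ratio 5.73. On the log2(TPM + 1) scale, which understates the change of low genes, the means were 5.77 ± 0.77 (SD, n = 3) and 2.93 ± 0.40 (SD, n = 3). The SHF minus CNC difference was 2.84 ± 0.88 (SE), with a 95% interval from 0.90 to 4.77.

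This difference did not pass the test across all genes. In limma, a linear model with a shared estimate of the spread, *Tbx20* had an unadjusted p of 0.00811 and a Benjamini-Hochberg adjusted p of 0.629. None of the 10185 tested genes (0%) passed the adjusted threshold of 0.05 in limma, while 597 (5.86%) had an unadjusted p under 0.05, 274 of them (2.69%) higher in SHF. *Tbx20* stood at rank 131 of the 10185 by unadjusted p and at rank 176 of the 5215 genes with a positive difference by its size. The exact two-sided permutation test of *Tbx20* gave p = 0.1, the smallest value that 3 libraries against 3 allow. Of all tested genes, 11.8% had lineages that did not overlap, 6.11% with SHF higher and 5.68% with CNC higher. Across the 6378 genes above 0 in all 6 libraries, 4 had a lowest SHF library at least as far above the highest CNC library as *Tbx20*, itself included. The other 3, *Dtwd2*, *Tanc1* and *5033428I22Rik*, were named after their values were seen. Genes listed at 0 in any library were left out of this count, also where their gap was wider. *Bcl9* is such a gene, at 2.63 to 7.71 TPM in SHF and 0 to 0.03 TPM in CNC. *Tbx20* ranked 2483 by mean TPM among the 13098 genes above 0 in SHF and 8223 among the 12989 genes above 0 in CNC.

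**Figure D1:**
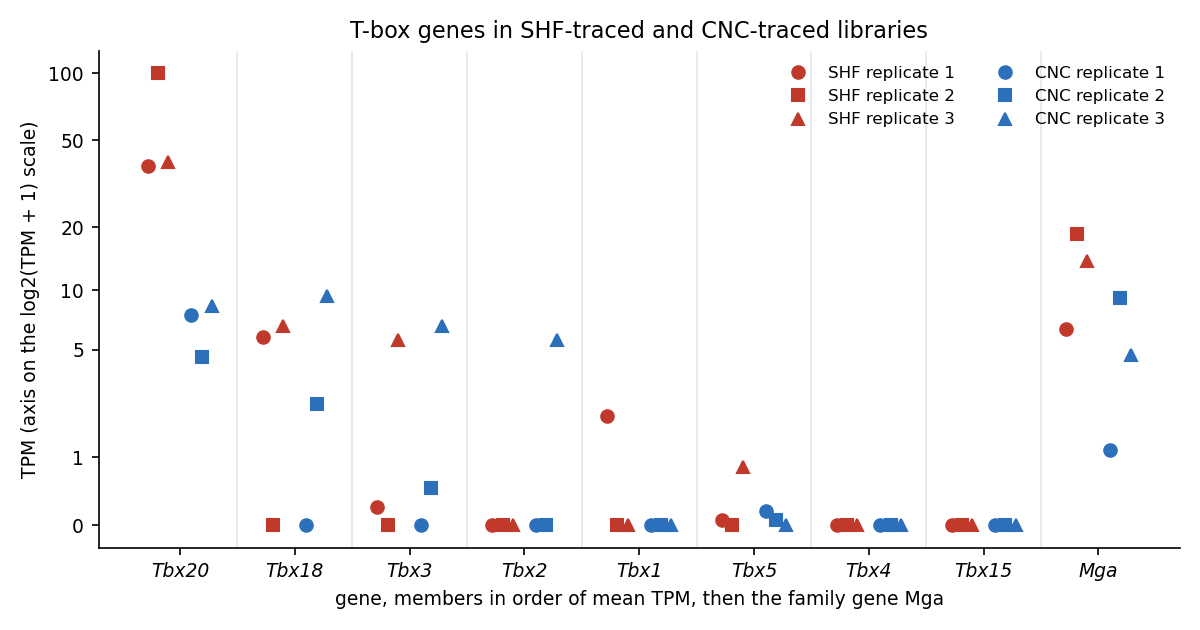
TPM of the 8 T-box genes and of the family gene *Mga* (horizontal axis) in each of the 6 libraries (vertical axis, TPM spaced on the log2(TPM + 1) scale), with SHF in red, CNC in blue and a marker shape for each replicate number. The 3 SHF libraries of *Tbx20* lie between 38.26 and 99.95 TPM, above the CNC libraries at 4.55 to 8.35 TPM, while the other members lie under 10 TPM or at 0.

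*Tbx18* ranked next and did not separate the lineages. Its SHF libraries had 5.87, 0 and 6.66 TPM and its CNC libraries 0, 2.45 and 9.38 TPM. Both lineages spanned values from 0 to above 5 TPM and overlapped throughout. The log2 difference was 0.19 ± 1.29 (SE), with a 95% interval from -2.66 to 3.03 and an adjusted p of 0.994 in limma. The interval holds differences of more than 2 on the log2 scale in either direction, so these libraries do not show that *Tbx18* was at the same level in both lineages. The direction itself turned when SHF replicate 1, SHF replicate 3 or CNC replicate 1 was left out, at -0.25, -0.33 and -0.68.

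The remaining members were low or listed at 0. *Tbx3*, a repressor of chamber genes, had 0.2, 0 and 5.62 TPM in the SHF libraries, against 0, 0.46 and 6.65 TPM in the CNC libraries. A single library of each lineage, replicate 3 in both, carried nearly all of it. *Tbx2*, the closest relative of *Tbx3*, was at 5.64 TPM in CNC replicate 3 and listed at 0 in the other 5 libraries. CNC replicate 3 was thus the library with the highest values of *Tbx2*, *Tbx3* and *Tbx18*. *Tbx1*, the outflow tract regulator, was at 2.06 TPM in SHF replicate 1 and listed at 0 elsewhere. *Tbx5* had 0.05, 0 and 0.81 TPM in the SHF libraries, against 0.16, 0.05 and 0 TPM in the CNC libraries, under 1 TPM in every library. *Tbx4* and *Tbx15* were listed at 0 in all 6 libraries. These values of 0 and below 1 TPM are not evidence of absence, since TPM keeps no record of how many reads stand behind a value.

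Of the 8 members, 2 reached the filter of at least 1 TPM in at least 3 libraries and were tested, *Tbx18* and *Tbx20*. A count of members that passed is therefore not a statement about the family. The study looked for lineage-exclusive transcripts with a threshold of 5 TPM. This was read here as all 3 libraries of the expressing lineage above 5 TPM and none of the opposite lineage above 0, which 0 of the 8 members met. Over the whole matrix that reading found 0.0778% of rows for SHF and 0.0614% for CNC. *Tbx20* missed it because each CNC library held between 4.55 and 8.35 TPM.

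*Tbx20* made up most of the T-box signal except in CNC replicate 3. Its share of the summed TPM of the 8 members was 82.4%, 100% and 75.4% in the SHF libraries, against 97.9%, 60.6% and 27.8% in the CNC libraries. SHF replicate 2, where 9255 genes were above 0, the fewest of any library, had *Tbx20* as its only member above 0. SHF replicate 1, with the most genes above 0 at 11858, had 5 members above 0. The order of the means over all 6 libraries was *Tbx20* at 33.1 TPM, *Tbx18* at 4.06 TPM, *Tbx3* at 2.15 TPM, *Tbx2* at 0.94 TPM, *Tbx1* at 0.343 TPM and *Tbx5* at 0.178 TPM. *Tbx20* was above *Tbx18* in 5 of 6 libraries, the exception being CNC replicate 3. *Tbx18* was above *Tbx3* in 4 libraries and tied with it at 0 in 2. *Tbx3* stood above *Tbx2* in 4 libraries with 2 tied, so in neither of these steps was the lower member ever above the higher. *Tbx2* exceeded *Tbx1* in 1 library and *Tbx1* exceeded *Tbx5* in 1 library, so the last 3 places are not ordered beyond their spread.

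*Tbx20* lies on chromosome 9 of GRCm38 from 24718138 to 24774303 on the minus strand, with 5 annotated transcripts, 3 of them protein-coding, and up to 8 exons. Its exons overlap no exon of another annotated gene. *Tbx18* lies on the same chromosome from 87702800 to 87731260, and its exons overlap those of *D030062O11Rik* on the opposite strand. *Tbx2* and *Tbx4* are neighbours on chromosome 11, 44.5 kb apart, and *Tbx3* and *Tbx5* on chromosome 5, 147.9 kb apart. Exons of *Tbx3* overlap those of the antisense gene *Tbx3os1*. The amplification used does not keep strand, so reads from *Tbx3* and *Tbx3os1*, or from *Tbx18* and *D030062O11Rik*, could not be told apart. The row *Tbx3os2*, a noncoding neighbour of *Tbx3*, was listed at 0 in all 6 libraries.

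RefSeq sequences before the start site (GRCm38.p6) matched 4 of the 8 members by symbol. The 250 bases before the start are shown for the 2 tested members, *Tbx20*, whose lineages separated, and *Tbx18*, whose lineages did not. They are given 5′ to 3′ on the minus strand, at chr9:24774304-24774553 for *Tbx20* and chr9:87731261-87731510 for *Tbx18*. Capitals mark matches, on either strand, to the letters GATAA (the GATA factor motif), GGTGTGA (a T-box half-site), GGAAA (the NFAT core) and GGCGCC (a GC-rich motif of Smad1 and Smad5), none of which overlapped another here.
Tbx20: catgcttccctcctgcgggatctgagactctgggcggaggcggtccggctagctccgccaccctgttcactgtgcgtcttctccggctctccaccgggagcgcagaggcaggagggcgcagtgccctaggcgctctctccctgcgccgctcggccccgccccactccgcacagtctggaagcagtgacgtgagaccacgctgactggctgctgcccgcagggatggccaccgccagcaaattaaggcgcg
Tbx18: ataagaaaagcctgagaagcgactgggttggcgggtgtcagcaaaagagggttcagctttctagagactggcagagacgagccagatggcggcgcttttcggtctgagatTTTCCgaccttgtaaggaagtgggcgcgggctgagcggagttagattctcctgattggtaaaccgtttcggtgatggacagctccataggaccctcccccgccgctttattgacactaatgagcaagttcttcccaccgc
The *Tbx20* window held none of the 4 motifs, and the *Tbx18* window held 1, the NFAT core on the opposite strand. Of 32851 windows of the same length over all genes, 22.6% held GATAA, 3.33% GGTGTGA, 55.6% GGAAA and 9.59% GGCGCC. The GC content was 68.8% for *Tbx20* and 54% for *Tbx18*, against a median of 52.4% over all windows. A match or its lack describes these letters and this window only.

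The family has 9 further genes in the matrix. *Mga*, which joins a T-box to a MAX-binding domain, had 6.42, 18.65 and 13.79 TPM in the SHF libraries, against 1.15, 9.2 and 4.69 TPM in the CNC libraries. The lineages overlapped, because CNC replicate 2 was above SHF replicate 1. Its log2 difference was 1.37 ± 1.25 (SE), with an adjusted p of 0.896 in limma, and ran from 0.76 without CNC replicate 1 to 1.89 without CNC replicate 2. The other 8, *Tbx6*, *Tbx10*, *Tbx19*, *Tbx21*, *Tbx22*, *Tbr1*, *Eomes* and Brachyury (the row *T*), were listed at 0 in all 6 libraries.

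T-box factors act with partner proteins, answer to BMP and retinoic acid signals and control known target genes. Over the other family genes and the lists of partners, signals and targets, 34 of 63 genes were tested, and 0 passed the adjusted threshold in limma in either direction, as for all genes. At an unadjusted limma p under 0.05 there were 4, *Gata4*, *Vcan*, *Gja5* and *Flt4*, all higher in SHF. Of all tested genes, 2.69% were called in that direction and 5.86% in either. The lineages did not overlap for 6 of the 34 (17.6%), 5 with SHF higher and 1 with CNC higher, beside 11.8% of all tested genes. Of these, *Gja5* and *Flt4*, also among the 4, were listed at 0 in every CNC library and reached the filter through SHF alone. Their separation was thus fixed by the filter, and their place among the 4 rested on it too. Without genes of this kind 4 of 32 did not overlap (12.5%), close to 11.2% of all other tested genes. The median log2 difference was 0.33 with *Gja5* and *Flt4* included, beside 0.02 over all tested genes.

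Among the 18 partners and cofactors, 12 were tested and 1, *Gata4*, had lineages that did not overlap (8.33%, beside 11.8% of all tested genes). *Gata4*, a zinc finger factor that binds T-box proteins at cardiac genes, had 51.54, 61.92 and 37.69 TPM in the SHF libraries, against 17.22, 4.16 and 0 TPM in the CNC libraries. Every SHF library was above every CNC library, and the CNC libraries differed widely from each other. Its log2 difference was 3.47 ± 1.21 (SE), with an adjusted p of 0.694 in limma. This difference was 2.38 without CNC replicate 3, the CNC library listed at 0, and 4.67 with a pseudocount of 0.1. *Pdlim7*, a LIM protein that binds *Tbx5*, was the most abundant of the list at 61.53 to 108.32 TPM in SHF and 41.97 to 87.14 TPM in CNC. *Wwtr1*, the coactivator TAZ, was at 16.83 to 96.35 TPM and 13.65 to 24.23 TPM. *Gata5*, *Hand1* and *Sall4* were listed at 0 in every library.

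Of the 12 upstream signals, 8 were tested, with a median log2 difference of -0.03. *Rarb*, a retinoic acid receptor, had 7.92, 5.63 and 16.06 TPM in the SHF libraries, against 21.48, 17.71 and 25.34 TPM in the CNC libraries. Every CNC library was above every SHF library, by 1.1 times at the nearest, and the log2 difference was -1.15 ± 1.00 (SE) with an adjusted p of 0.895 in limma. *Bmp4*, a ligand of the BMP pathway, which induces *Tbx2* and *Tbx20* in the heart, spanned 18.8 to 66.17 TPM in SHF and 5.58 to 131.18 TPM in CNC. *Foxc2*, a forkhead factor upstream of *Tbx1*, was at 0 to 35.71 TPM and 2.66 to 88.44 TPM, and *Rara* at 15.58 to 23.77 TPM and 17.82 to 26.36 TPM. All 3 overlapped.

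Of the 9 chamber and conduction targets, 3 were tested. *Gja5*, the connexin of atrial and arterial endothelial junctions, had 4.85, 3.44 and 20.77 TPM in the SHF libraries, with all CNC libraries listed at 0. SHF replicate 3 was the highest, and the adjusted p was 0.688 in limma. *Gja1*, a connexin that *Tbx2* and *Tbx3* repress, was at 72.36 to 283.86 TPM in SHF and 67 to 132.94 TPM in CNC. *Atp2a2*, the calcium pump of the sarcoplasmic reticulum, was at 7.28 to 46.01 TPM and 8.24 to 46.04 TPM. *Actc1*, cardiac actin, missed the filter, at 42.14, 0 and 28.19 TPM in SHF and 0 in CNC. *Nppb* and *Hcn4* were listed at 0 throughout.

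Of the 8 pharyngeal and outflow targets, 5 were tested. The lineages did not overlap for *Flt4*, which reached the filter through SHF alone, and *Wnt5a*, beside 6.11% of all tested genes with SHF higher. *Flt4*, a lymphatic endothelial receptor that *Tbx1* activates, had 1.31, 4.54 and 12.72 TPM in the SHF libraries, with all CNC libraries listed at 0, and an adjusted p of 0.771 in limma. *Wnt5a*, a ligand under *Tbx1* in the secondary heart field, had 52.8, 99.54 and 123.44 TPM in the SHF libraries, against 50.99, 45.55 and 35.02 TPM in the CNC libraries. The gap between the nearest libraries was small, at 1.04 times, and the log2 difference was 0.98 ± 0.54 (SE) with an adjusted p of 0.874 in limma. *Sema3c*, a guidance cue for crest cells entering the outflow tract, was at 89.23 to 143.68 TPM in SHF and 88.82 to 323.46 TPM in CNC. *Crkl* was at 0 to 49.07 TPM and 0 to 30.89 TPM.

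Of the 7 cell cycle, adhesion and cushion targets, 5 were tested and 1, *Vcan*, had lineages that did not overlap, beside 11.8% of all tested genes. *Vcan*, which codes for the cushion proteoglycan versican, had 234.21, 303.93 and 134.79 TPM in the SHF libraries, against 88.63, 94.78 and 96.71 TPM in the CNC libraries. The CNC libraries lay within 10 TPM of each other, below all SHF libraries. The log2 difference was 1.18 ± 0.41 (SE), with an adjusted p of 0.699 in limma. *Tgfb2* was at 57.11 to 64.62 TPM in SHF and 17.56 to 57.97 TPM in CNC, which overlapped by a single CNC library. *Cdkn1a*, a cell cycle inhibitor that *Tbx2* represses, was at 33.56 to 278.93 TPM and 56.03 to 124.46 TPM. *Cdkn2a* and *Cdh1* were listed at 0 throughout.

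**Figure D2:**
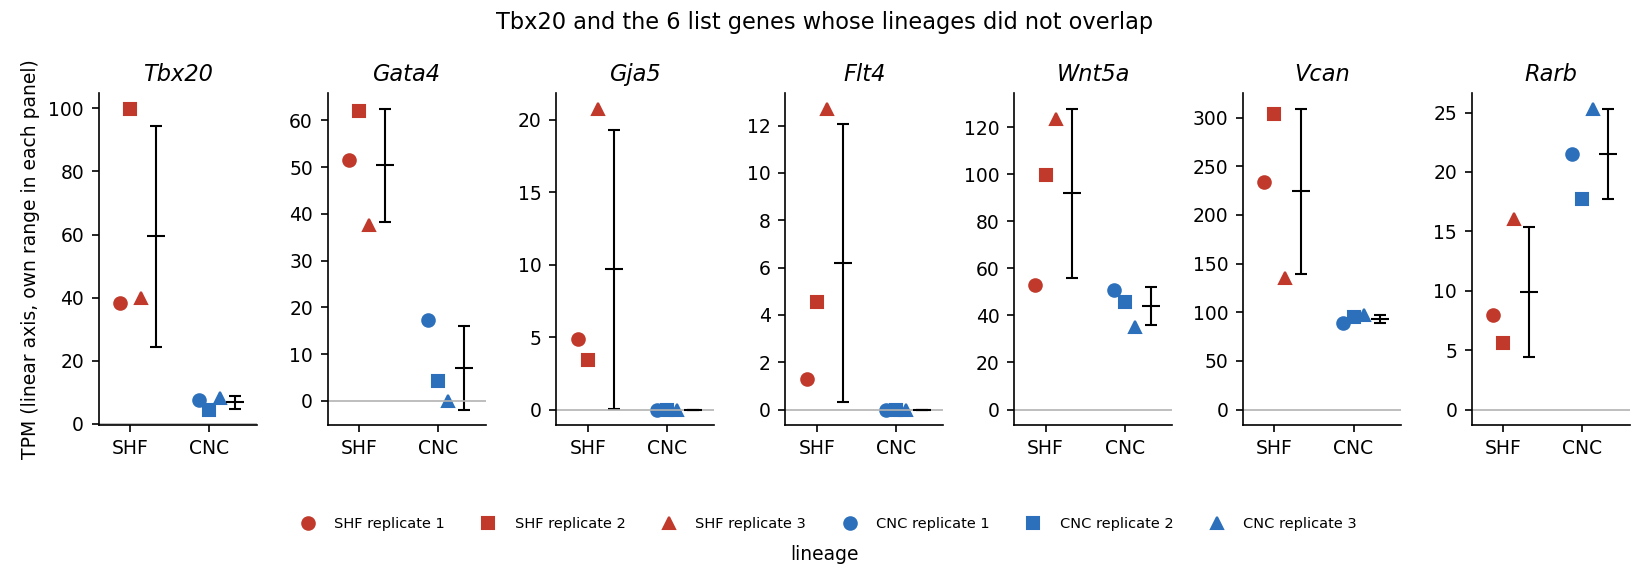
TPM (linear vertical axis with its own range in each panel) of *Tbx20* and the 6 list genes whose SHF and CNC libraries did not overlap, by lineage (horizontal axis), with 1 point per library and, in black, the mean with its SD over 3 libraries. *Gata4*, *Gja5*, *Flt4*, *Wnt5a* and *Vcan* were higher in all SHF libraries and *Rarb* in all CNC libraries, with gaps from 1.04 times for *Wnt5a* to 4.58 times for *Tbx20* where both lineages were above 0.

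**Figure D3:**
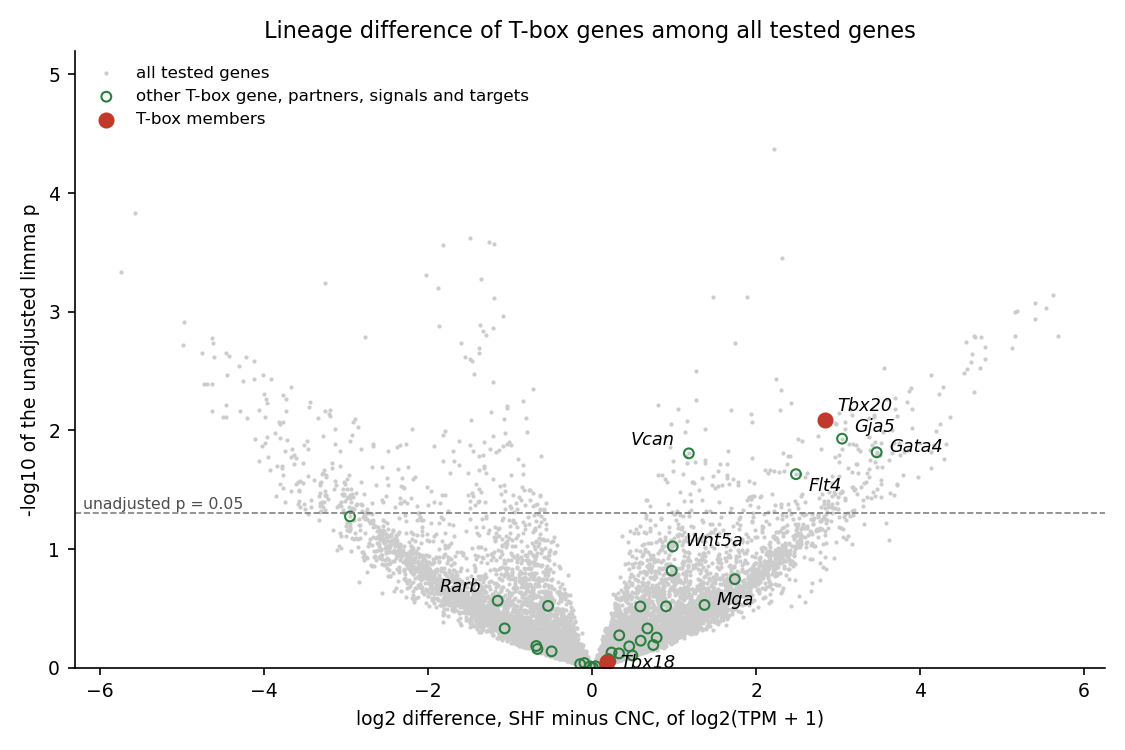
Log2 difference, SHF minus CNC (horizontal axis), and -log10 of the unadjusted limma p (vertical axis) of 10185 tested genes in grey, of the 34 tested family, partner, signal and target genes as green rings and of *Tbx20* and *Tbx18* as red points. *Tbx20* lies above the dashed line at an unadjusted p of 0.05 together with *Gja5*, *Gata4*, *Flt4* and *Vcan*, and *Tbx18* lies at the bottom near 0.

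The genes with the pattern nearest to *Tbx20*, by the root mean square difference of centred log2(TPM + 1) over 6 libraries, were *Sbno1* at 0.27, *Bcl9* at 0.36 and *Fxyd6* at 0.36. *Sbno1* had 14.57, 36.61 and 19.89 TPM in the SHF libraries, against 4.15, 1.18 and 4.18 TPM in the CNC libraries. For *Tbx18* they were *Tbc1d13* at 0.19, *Mroh1* at 0.23 and *Ints8* at 0.24, each also listed at 0 in SHF replicate 2 and CNC replicate 1. Over 10184 distinct tested gene symbols and 6 libraries, near matches of this kind describe the libraries only.

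The study treats these sorts as vascular smooth muscle cells, but the fibroblast markers listed here summed to more than the listed smooth muscle markers in every library. None of the markers named here passed the adjusted threshold in limma. The lineages did not overlap for 5 of 10 tested fibroblast markers, with CNC higher, or for 2 of 6 endothelial markers, 1 of 3 cardiomyocyte markers and *Tcf21*, the single epicardial and mesothelial marker tested, with SHF higher, beside 11.8% of all tested genes. The endothelial ones, *Cdh5* and *Emcn*, and the cardiomyocyte one, *Myl3*, were listed at 0 in every CNC library and reached the filter through SHF alone, which fixed their separation. Of 10 smooth muscle and 6 pericyte markers tested, 1 of each did not overlap, with CNC higher, and none of the melanocyte and leukocyte markers. The sum of 10 fibroblast markers, led by *Gsn* and *Dcn*, was 15.3 to 51.3 times that of 10 smooth muscle markers, led by *Myl9* and *Acta2*. The smooth muscle sum was 1442.51 to 3073.32 TPM in SHF and 1345.08 to 2026.76 TPM in CNC, and the fibroblast sum 43736.15 to 62143.73 TPM and 63307.55 to 68999.76 TPM. The sum of 9 endothelial markers, led by *Pecam1* and *Emcn*, was 82.8 to 580.67 TPM in SHF and 22.9 to 60.96 TPM in CNC. The sum of 10 cardiomyocyte markers, led by *Tnnt2* and *Myl3*, was 111.72 to 132.92 TPM and 1.46 to 37.89 TPM, with *Myl2* and *Myl7* listed at 0 throughout. The sum of 9 epicardial and mesothelial markers was 237.95 to 618.94 TPM and 48.61 to 105.68 TPM, most of it *Tcf21*, which fibroblasts also express, while *Upk1b*, *Msln*, *Lrrn4* and *Bnc1* were listed at 0. Pericyte sums, led by *Rgs5* and *Pdgfrb*, were 274.51 to 653.92 TPM and 531.94 to 701.21 TPM. Melanocyte sums were 22.27 to 35.14 TPM and 10.31 to 23.06 TPM, all of it *Tyr* and *Mitf* with the other 4 at 0, and leukocyte sums 0 to 26.9 TPM and 7.96 to 84.7 TPM, with *Ptprc*, *Adgre1* and *Cd3e* at 0. In bulk RNA, fewer cells of a type and less RNA per cell cannot be told apart.

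*Tbx20* and 2 of these sums peaked in the same library. In SHF replicates 1, 2 and 3 *Tbx20* was at 38.26, 99.95 and 40.03 TPM, the endothelial sum at 82.8, 580.67 and 520.41 TPM and the cardiomyocyte sum at 111.72, 132.92 and 124.05 TPM. The highest value of all 3 was thus in SHF replicate 2, while SHF replicates 1 and 3, nearly equal in *Tbx20*, differed widely in the endothelial sum. Within SHF the pericyte sum, at 382.68, 653.92 and 274.51 TPM, was also highest in replicate 2, but it reached 701.21 TPM in CNC replicate 3. The smooth muscle, fibroblast and leukocyte sums were the lowest of the SHF libraries there. Of the 9 endothelial markers, 7, 7 and 9 were above 0 in the SHF libraries and 3, 2 and 3 in the CNC libraries. Of the 10 cardiomyocyte markers, 8, 3 and 6 were above 0 in the SHF libraries and 3, 2 and 1 in the CNC libraries. The 3 in SHF replicate 2 were *Tnnt2* at 87.44 TPM and *Actn2* at 38.94 TPM, both at their highest there, and *Myl3* at 6.54 TPM. The epicardial and mesothelial sum was at 294.64, 237.95 and 618.94 TPM, lowest of the SHF libraries where *Tbx20* was highest, and in SHF replicates 1 and 2 it was *Tcf21* alone. The part of these cell types in the level of *Tbx20*, *Gata4*, *Gja5* and *Flt4* was not tested.

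The female-specific transcript *Xist* had 51.95 TPM in SHF replicate 2, 38.76 TPM in SHF replicate 3 and 0 in SHF replicate 1 and all CNC libraries, which instead carried the Y-linked *Ddx3y* at 42.24 to 61.27 TPM. *Tbx20* in SHF replicate 1, the SHF library with Y-linked transcripts, was at 38.26 TPM, above all 3 CNC libraries. With a single such SHF library no fit within it was made, and the part of sex in the lineage differences was not tested.

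**Figure D4:**
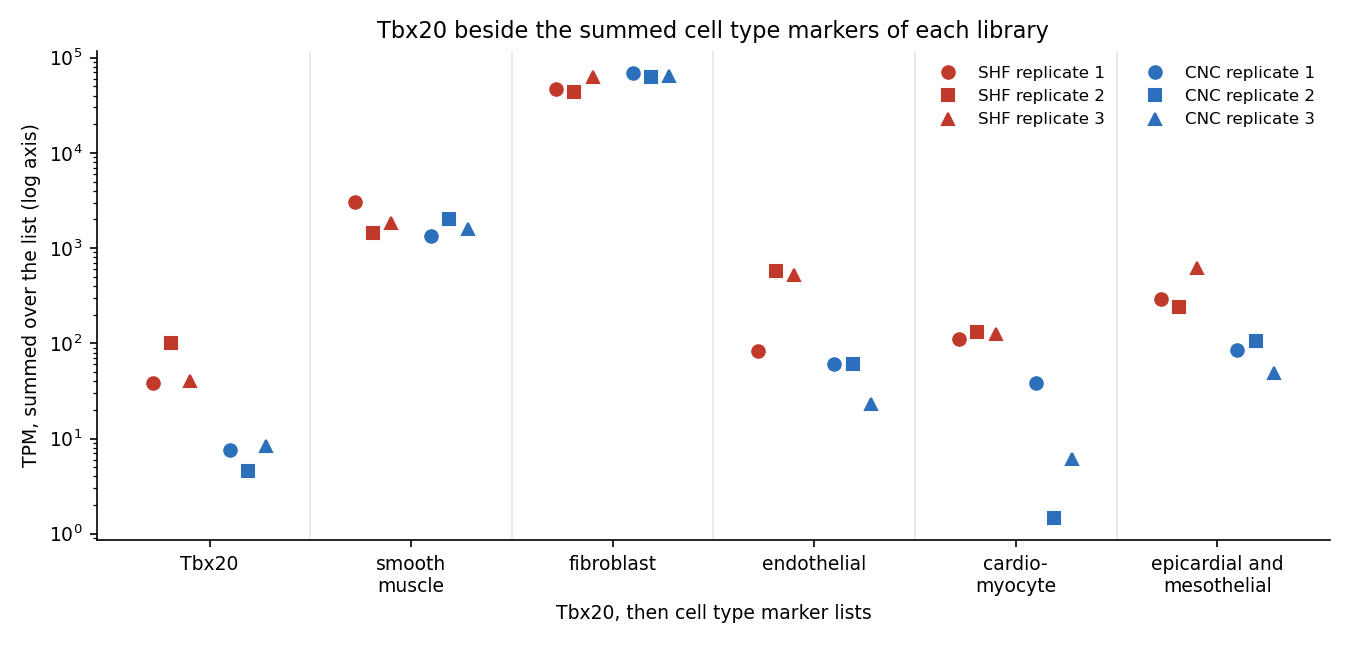
TPM of *Tbx20* and summed TPM of 5 cell type marker lists (horizontal axis) in each library, on a log vertical axis, with SHF in red, CNC in blue and a marker shape for each replicate number. Of the 5 lists plotted, the endothelial, cardiomyocyte and epicardial and mesothelial sums, like *Tbx20*, were higher in all SHF libraries, and the fibroblast sum was higher in all CNC libraries.

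The difference of *Tbx20* kept its direction under each of 15 other settings, from 2.33 to 3.07 on the log2 scale. Its unadjusted p ran from 0.00346 to 0.0457 and its adjusted p from 0.367 to 0.969 in limma, so that it missed the adjusted threshold under every one. The smallest difference with a library left out was 2.39, without SHF replicate 2.

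**Figure D5:**
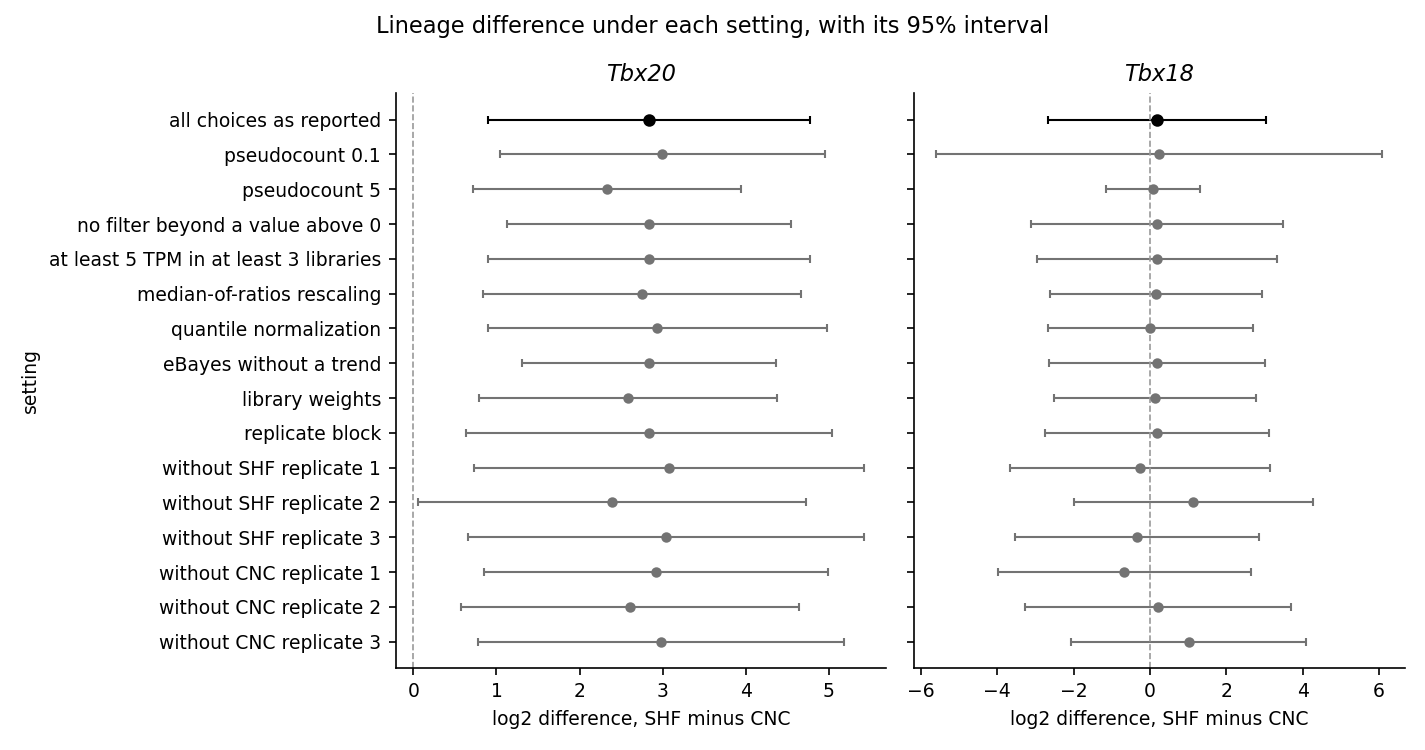
Log2 difference, SHF minus CNC (horizontal axis), of *Tbx20* and *Tbx18* under each setting (vertical axis), with bars for the 95% interval from limma and the values of the report in black. All intervals of *Tbx20* lie above 0, the nearest without SHF replicate 2, before any adjustment for the number of genes, and all intervals of *Tbx18* span 0.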

How the data were processed

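Gene levels of 6 bulk RNA libraries (3 SHF, 3 CNC) were analysed as TPM. The authors amplified RNA by SmartSeq2, prepared libraries with Nextera XT, aligned reads to mm10 with bowtie2, estimated gene levels with RSEM (version 1.2.25 per the labels) and deposited the TPM matrix with a column for each library. The annotation behind the rows is not given in the sources used here. Each TPM column sums to about 1000000, so sequencing depth is unknown and no counting interval or detection limit could be given. Columns were matched to libraries by their library code.

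Levels were compared with limma 3.58.1 (lmFit, then eBayes with a trend) in R 4.3.3 on log2(TPM + 1), as SHF minus CNC. The fit took the 10185 genes that reached 1 TPM in 3 or more libraries, and p-values were adjusted over all of them by Benjamini-Hochberg, called at 0.05. Fits with a library left out kept these genes. The fit was tested on simulated data. Single genes were tested with the exact permutation test of scipy 1.17.1. The libraries are biological replicates per the study, and the labels do not say how many mice each holds.

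The members and the gene lists were chosen with earlier results of these data known. Of the partner, signal and target lists, the 3 most abundant genes and those without overlap at a lineage mean of at least 5 TPM were named; of each marker list, the 2 most abundant; other marker genes were named after their values were seen. Some listed genes, and a marker sum that rests on them, are not reported here. Positions are from GENCODE M21 (GRCm38) and sequences from RefSeq. Tables and plots used Python 3.11.15, pandas 2.3.3 and matplotlib 3.10.9.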

Additional observations from a re-analysis of the deposited data

How the results depend on the processing

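Each library was left out in turn, the pseudocount was set to 0.1 or 5, the filter on low values was dropped or raised, columns were rescaled by median-of-ratios or by quantiles, and the fit was run with library weights, with no trend or with a replicate block. For exclusive transcripts the limit was moved as well. In limma 0 genes passed the adjusted threshold, and under the alternatives the count stayed at 0 except with a pseudocount of 5, where 1 gene, *Gm13305*, passed with CNC higher. No T-box gene and none of the listed genes passed under any of them, and 0 members were exclusive under each threshold. *Tbx20* remained the single member whose lineages did not overlap, under both rescalings. Leaving out a library cannot end a separation and can only add one, and no other member was added. The 6 list genes without overlap were 5 after median-of-ratios rescaling and 8 to 10 with a library left out, reaching 10 when either SHF replicate 2 or CNC replicate 2 was dropped. With fewer libraries, separation comes more easily for any gene. No share over all tested genes is given for these settings, so these counts are not read as a result about the listed genes. The ratio of *Tbx20* means, recomputed with each library left out as a choice made after seeing the data, ran from 5.73 to 10.2. Of 298 single values under alternatives 282 kept their direction and 16 turned. With library weights the log2 difference of *Foxc2* was 0.77. With a library left out, differences ran from -0.68 to 1.14 for *Tbx18*, -0.83 to 1.34 for *Bmp4*, -1.80 to 1.07 for *Foxc2*, -0.23 to 0.065 for *Rara*, -0.39 to 0.86 for *Atp2a2*, -0.87 to 2.10 for *Crkl* and -0.54 to 0.97 for *Cdkn1a*.

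With the replicate number as a block, *Tbx20* kept its difference of 2.84 with an adjusted p of 0.879 in limma, 0 genes passed, and no call changed. Nothing in the labels ties libraries of the same number to each other. The deviations of same-numbered libraries from their lineage means correlated at -0.0113, -0.00438 and -0.0106, so no shared pattern was seen. Batch and handling are not recorded in the labels, and their part was not tested. Unknown depth and frequent values of 0 limit every statement on the low members.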
